A study of Mus musculus with 12 samples.

Results

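The comparison set the hippocampus against the cortex of old 3xTgAD mice that had received the antidepressant amitriptyline-hydrochloride (AMI). It used 6 of the 12 arrays of the series, those titled HIP-AMI 1 to 3 and CTX-AMI 1 to 3, joined probe by probe. A probe was tested when 3 or more of the 6 arrays gave it a detection p no higher than 0.05, which left 13193 of 25697 probes and 9963 of 18117 genes. The study asked what long treatment with AMI does in aged 3xTgAD mice, a line whose alleles include mutant human APP and tau transgenes under a Thy1 cassette, active mainly in neurons. All 12 samples came from male 3xTgAD mice. Treatment began at 14 months of age and tissue was taken at 18 months. The AMI groups received 100 µg AMI per g body weight in the drinking water for 4 months, and the vehicle groups received the same water without the drug. By the study's methods both groups had also been injected with the nucleoside analogue BrdU. No array of a mouse without the 3xTgAD alleles was analysed here, so every tissue difference below was measured on that background. The labels do not say which mouse gave which sample, and p-values measure the spread between these samples only.

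The hippocampus is an archicortical structure in which the granule cells of the dentate gyrus project through mossy fibres to the pyramidal cells of field CA3, which in turn project to field CA1. The neocortex is built of layers of projection neurons whose identities are set by transcription factors such as Tbr1, Cux1 and Fezf2. AMI is a tricyclic antidepressant that blocks the reuptake of serotonin and noradrenaline and binds several monoamine, histamine and muscarinic receptors. Because the arrays measured pieces of whole tissue, fewer cells of a type and less RNA per cell cannot be told apart.

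Levels are given as normalized log2 signal, where 0 is the mean of all probes on an array, and differences as hippocampus minus cortex on that log2 scale with the standard error of the limma fit. Each array detected between 49.0 and 51.7% of its probes. The hippocampus arrays reached higher top signals (35958 to 53324) than the cortex arrays (24573 to 27400). All hippocampus samples lie in 1 deposited table and all cortex samples in another, written by different versions of the data extraction software, so tissue and table cannot be told apart. Array pairs of the same tissue correlated at r = 0.986 to 0.994 over all probes and pairs of different tissue at r = 0.975 to 0.983. The first principal component held 63.0% of the variance and placed the hippocampus arrays between 20.9 and 23.7 and the cortex arrays between -25.1 and -17.3. The second held 19.0%, with HIP-AMI 1 at -21.7 and the other arrays between -10.4 and 12.0.

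In AMI-treated mice 3512 probes, 26.6% of those tested, differed between the tissues at an adjusted p under 0.05 (limma, Benjamini-Hochberg). Of these, 1933 (14.7%) were higher in the hippocampus and 1579 (12.0%) higher in the cortex. With each gene read by its brightest tested probe, 1484 genes (14.9%) were higher in the hippocampus and 1181 (11.9%) in the cortex. These shares of all tested genes are the background for the counts of every gene list below. Most of the differences were small. The median size among called probes was 0.52, and 44.4% of them were under 0.5. At least a 2-fold difference was reached by 280 probes (2.12%), 127 of them higher in the hippocampus and 153 in the cortex. Counted by any probe these were 118 and 135 genes, the sets used for promoters below, and by the brightest probe 103 and 119. Centring the arrays on their medians instead of scaling them moved the median difference of all tested probes from 0.02 to 0.21, and the calls then split into 1140 higher in the hippocampus and 213 in the cortex. Directions of small differences below are therefore relative to the scaling of the arrays.

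**Figure D1:**
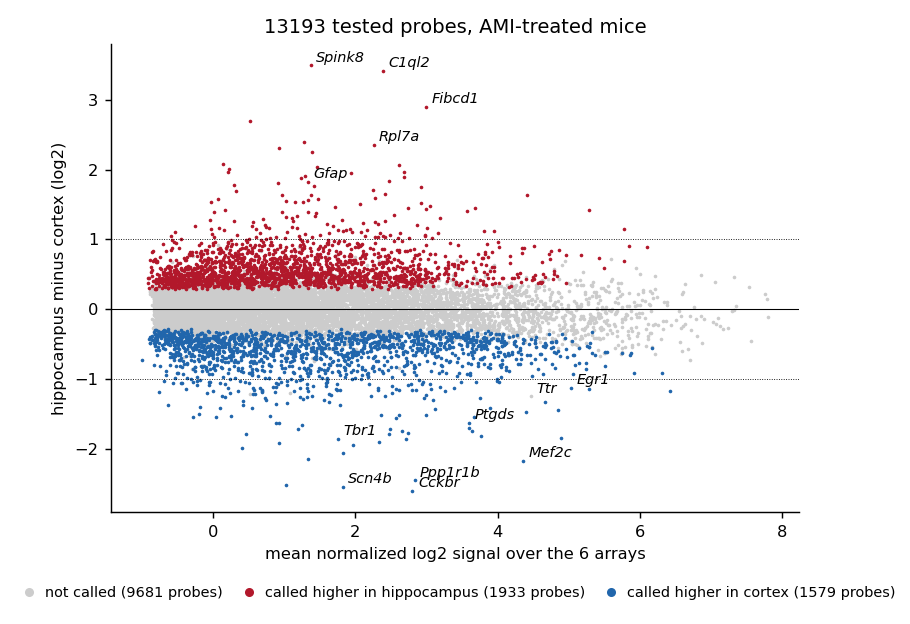
Each point is 1 of the 13193 tested probes in AMI-treated mice, with its mean normalized log2 signal over the 6 arrays on the horizontal axis and its hippocampus minus cortex difference (log2) on the vertical axis. Red marks the 1933 probes called higher in the hippocampus, blue the 1579 called higher in the cortex and grey the rest, and the dotted lines mark 2-fold; most called probes lie between the dotted lines.

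The largest differences toward the hippocampus were those of genes that mark its principal cells. Spink8, a Kazal-type protease inhibitor gene used as a marker of CA pyramidal cells, read 3.19, 3.06 and 3.10 in the hippocampus samples 1, 2 and 3 and -0.55, 0.05 and -0.64 in the cortex samples. The difference was 3.50 ± 0.17 or 11.3-fold (adjusted p = 7.47e-06, limma). C1ql2, which encodes a C1q-like synaptic protein released by mossy fibres, read 4.46, 4.00 and 3.83 in the hippocampus against 0.60, 0.85 and 0.60 in the cortex. Its difference was 3.41 ± 0.16, or 10.7-fold. Fibcd1, a gene of CA1 pyramidal cells, read 4.65, 4.48 and 4.23 against 1.62, 1.70 and 1.33, a 7.48-fold difference. In these 3 genes the gap between tissues was several times the spread among the 3 arrays of either tissue.

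Other genes at the head of the hippocampal list encode adhesion, protease and signalling proteins. The desmosomal plakophilin gene Pkp2 was higher by 2.39 ± 0.13, and its other tested probes by 1.81 and 1.57. Klk8, a serine protease (neuropsin) known from hippocampal pyramidal cells, was higher by 2.31 ± 0.17, and the olfactomedin-like gene Olfml2b by 2.25 ± 0.17. Nrp1, a co-receptor for class 3 semaphorins, was higher by 2.06 and 1.90 on its 2 probes. Iqgap2, a scaffold of the actin cytoskeleton, was higher by 2.03 ± 0.13. Il16, the precursor of interleukin 16 and of a neuronal scaffold protein, was not above background on any cortex array and was at least 3.78-fold higher in the hippocampus (adjusted p = 1.37e-05, limma). Cabp7, a calcium-binding protein gene, was likewise detected on no cortex array and was at least 3.91-fold higher in the hippocampus (adjusted p = 0.000119, limma).

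2 of the leading genes are not markers of a cell type. Dctn1, a subunit of the dynactin complex that most cells make, read 1.37, 2.21 and 2.02 in the hippocampus against -0.84, -0.93 and -0.73 in the cortex, where 1 array detected it. The ribosomal protein gene Rpl7a read 3.23, 3.57 and 3.50 against 1.03, 1.17 and 1.04. Each rests on a single tested probe. The difference of Rpl7a was 2.36 ± 0.12. With each gene read by its brightest probe, the next highest of the 53 tested cytosolic ribosomal genes, Rps26, differed by 0.88. A dimmer probe of Rps3 differed by 1.05.

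Toward the cortex the 12 leading genes included Mef2c and Tbr1 from the list of neocortical layer genes and Ppp1r1b and Rgs9 from the striatal list. Cckbr, the brain receptor for cholecystokinin, read 4.03, 3.93 and 4.35 in the cortex and 1.72, 1.37 and 1.42 in the hippocampus. It was lower in the hippocampus by 6.07-fold (log2 difference -2.60 ± 0.14, adjusted p = 1.25e-05, limma). Scn4b, an auxiliary subunit of voltage-gated sodium channels, read 3.13, 3.10 and 3.06 in the cortex and 0.65, 0.55 and 0.44 in the hippocampus (-2.55 ± 0.10). Rasgef1c, a guanine nucleotide exchange factor gene, differed by -2.52 and -1.50 on its 2 probes. The transcription factor Mef2c read 5.40, 5.20 and 5.73 in the cortex and 3.68, 3.13 and 3.02 in the hippocampus, and Tbr1, which specifies deep-layer projection neurons, read 2.75, 2.79 and 2.52 against 0.71, 0.86 and 0.93. Groups that do not overlap were a condition for all leading genes, and 42.6% of all tested probes met it. Hr, a nuclear corepressor of thyroid hormone receptors, was lower in the hippocampus by 1.95 (log2 difference -1.95 ± 0.11), and the ankyrin repeat gene Sowahb, the ubiquitin ligase gene Pdzrn3 and the keratin gene Krt12 differed by -1.92, -1.89 and -1.99.

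**Figure D2:**
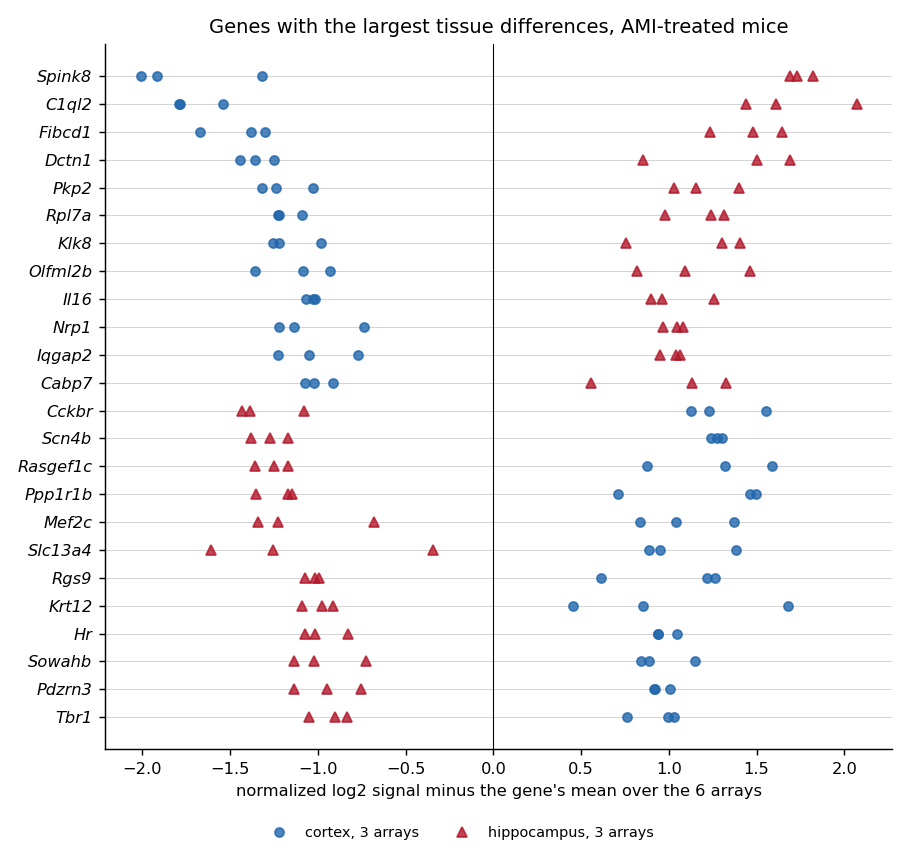
The 12 genes with the largest difference in each direction are shown by array, as normalized log2 signal minus that gene's mean over the 6 arrays; triangles are the 3 hippocampus samples and circles the 3 cortex samples of AMI-treated mice. For every gene the 3 samples of one tissue lie on one side of 0 and those of the other tissue on the other side. Genes with overlapping groups were not eligible, so this separation follows largely from the choice.

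To show what these readings were taken with, the first 30 bases of the 50-base probes of 6 leading genes are given from the deposited tables, 5′ to 3′; no base is marked.
Spink8: gtgcactagggtgtacgaagccttagggag
C1ql2: ccaacaaacagaaagttcaccttgtcatgc
Fibcd1: gttgctacttggggctgtgtgcacccggtg
Scn4b: tccaggaggcaccgacctgcacatgcccag
Mef2c: catccaagcacgctcacaaacctgcaggca
Tbr1: cgatgcctgccaggcggacttaactggagt
The tables place the Spink8 and Scn4b probes on chromosome 9, the C1ql2 probe on chromosome 1, the Fibcd1 and Tbr1 probes on chromosome 2 and the Mef2c probe on chromosome 13. They do not name the genome build of these positions. All 25697 probe sequences were identical in the hippocampus and cortex tables. Mef2c had 3 tested probes, and the others differed by -1.85 and -0.41, so the size of its difference depended on the probe while the direction did not.

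Markers of hippocampal neurons were mostly higher in the hippocampus samples. Of 7 tested dentate granule cell markers 5 were higher in the hippocampus and none in the cortex, with a median difference of 1.10 beside 0.02 for all tested genes. Prox1, the transcription factor that maintains granule cell identity, read 1.21, 1.51 and 1.27 in the hippocampus against 0.14, 0.29 and -0.06 in the cortex (1.21 ± 0.13, adjusted p = 0.000279, limma). Dsp, the desmosomal protein desmoplakin, was not above background in the cortex and was at least 1.69-fold higher in the hippocampus (adjusted p = 0.00052). Trpc6, a cation channel, was higher by 0.55. Sema5a, an axon guidance gene, read 3.91, 1.84 and 3.47 against 1.39, 1.88 and 1.18, so HIP-AMI 2 lay within the cortex range, and its call was lost when HIP-AMI 1, HIP-AMI 3, CTX-AMI 1 or CTX-AMI 3 was left out. Npnt differed by 0.02 and Dgkh by -0.27, neither called, and 5 further markers on the array, Calb1 and Tdo2 among them, did not reach the detection rule. Of 13 tested CA field markers 10 were higher in the hippocampus (median 0.83), among them the adhesion gene Amigo2 (1.33), the kainate receptor subunit Grik4 (0.97) and Nectin3 (0.84). The dimmer Nectin3 probes differed by 0.26 and 0.08 and were not called. Iyd was not above background in the cortex and was at least 1.42-fold higher in the hippocampus (adjusted p = 0.000641, limma). Ociad2 was lower in the hippocampus by 0.37 (log2 difference -0.37) and read 0.00 under median centring. Wfs1, a CA1 marker, read 1.59, 2.28 and 2.72 in the hippocampus against 2.74, 2.71 and 2.79 in the cortex and was not called (-0.55 ± 0.23, adjusted p = 0.109). The marker Zbtb20 had no probe of that name.

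Among transcription factors of hippocampal development 4 of 6 tested were higher in the hippocampus. Besides Prox1 these were the nuclear factor I genes Nfib (1.35 ± 0.14) and Nfix (0.77 ± 0.12) and the neuronal differentiation factor Neurod2 (0.74 ± 0.10). Lhx2 (0.43) and Klf9 (-0.21) were not called, and Neurod1 and Emx2 did not reach the detection rule. The Prox1 promoter is shown because this gene carries the granule cell identity in the list above. RefSeq (GRCm38.p6, minus strand) gives 2 starts for Prox1. The 250 bases before one of them (chr1:190170828-190171077) are printed 5′ to 3′ because they hold an E-box CAGATG, in capitals, and those before the other (chr1:190169516-190169765) hold none.
Prox1: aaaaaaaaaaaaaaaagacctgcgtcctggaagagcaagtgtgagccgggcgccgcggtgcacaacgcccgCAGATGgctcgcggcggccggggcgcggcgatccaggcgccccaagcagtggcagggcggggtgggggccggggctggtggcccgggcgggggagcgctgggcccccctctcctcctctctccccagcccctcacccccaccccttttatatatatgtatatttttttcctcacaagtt
CAGATG, searched on both strands in 250 bases, occurred in 16.3% of all promoters and in 12.7% of those of tested genes. It occurred in 12 of 84 promoters (14.3%) of genes at least 2-fold higher in the hippocampus and in 18 of 97 (18.6%) of genes at least 2-fold higher in the cortex. Both sets were drawn from the tested genes. The hippocampus share lay near the 12.7% of tested genes and the cortex share above it. The difference between these shares was not tested, and a match is a description of the letters only.

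Neocortical layer genes did not move as a block. Of 23 tested, 9 were higher in the cortex and 4 in the hippocampus, with a median of -0.32. Beside Mef2c and Tbr1, the cortical genes were led by Ccn2 (-1.79 ± 0.15), a matricellular gene of layer 6b, and by the upper-layer factors Cux2 (-0.65) and Cux1 (-0.57). Rorb, a layer 4 factor, differed by -0.41 ± 0.11 (adjusted p = 0.0197). The 4 genes higher in the hippocampus were Crym (1.45 ± 0.11), a thyroid hormone binding protein, the deep-layer factor Fezf2 (0.95), the repressor Bcl6 (0.59) and Mdga1 (0.38).

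Markers of other forebrain regions moved with the cortex samples. Of 13 tested markers of striatal medium spiny neurons 9 were higher in the cortex samples and none in the hippocampus (median -0.83). Ppp1r1b, which encodes the dopamine-regulated phosphatase inhibitor DARPP-32, read 4.30, 3.54 and 4.33 in the cortex and 1.48, 1.68 and 1.66 in the hippocampus. Its other tested probes differed by -0.78 and -0.28, the latter not called. The G protein regulator Rgs9 (-2.06), the opioid precursor Pdyn (-1.74), the substance P precursor Tac1 (-1.66) and the dopamine receptor Drd1 (-1.15) were lower in the hippocampus in the same way, and Drd2 differed by -0.33 ± 0.11 without a call. Adora2a did not reach the detection rule. Of 7 tested thalamic markers 5 were higher in the cortex samples, led by the vesicular glutamate transporter Slc17a6 (-1.09) and Ramp3 (-1.01), while Prkcd was higher in the hippocampus (0.58) and Tcf7l2, a defining thalamic factor, differed by 0.04. The median level of the striatal list ran from 0.98 to 1.63 in the cortex arrays of AMI mice and from -0.12 to 0.28 in the hippocampus arrays. That of the thalamic list ran from 0.31 to 0.56 and from 0.11 to 0.39. The part of striatal or thalamic tissue in the cortex samples was not tested. Some of these genes, Ppp1r1b and Tac1 among them, are also made in cortical neurons.

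Cartpt, the precursor of the peptide CART, was 1 of the genes at least 2-fold higher in the cortex and was chosen for display after its values were seen. It read 0.97, 0.83 and 0.59 in the cortex and -0.63, -0.53 and -0.70 in the hippocampus (-1.42 ± 0.12). Its promoter (RefSeq, GRCm38.p6, chr13:99900684-99900933, minus strand) holds the cAMP response element TGACGTCA and a CAGATG box on its reverse strand, both in capitals.
Cartpt: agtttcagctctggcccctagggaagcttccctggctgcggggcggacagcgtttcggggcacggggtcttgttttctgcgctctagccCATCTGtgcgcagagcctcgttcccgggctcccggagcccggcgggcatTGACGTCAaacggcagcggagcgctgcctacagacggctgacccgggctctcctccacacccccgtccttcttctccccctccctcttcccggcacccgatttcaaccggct
TGACGTCA, searched on both strands, was found in 5 of 97 promoters (5.15%) of genes at least 2-fold higher in the cortex, in 2 of 84 (2.38%) of those higher in the hippocampus, in 2.98% of tested genes and in 1.77% of all promoters. These counts are too few to read a difference from.

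Immediate early genes, which neurons switch on with activity, were called lower in the hippocampus more often than higher. Of 12 tested, 7 were higher in the cortex and 1 in the hippocampus (median -0.40, or -0.08 under median centring). The list level overlapped between tissues, from 1.13 to 2.04 in the cortex and 1.25 to 2.06 in the hippocampus arrays of AMI mice. In vehicle mice the median was -0.46, with 2 genes called higher in the cortex and 1 in the hippocampus. Egr1 read 5.88, 5.07 and 5.84 in the cortex and 4.81, 4.03 and 4.57 in the hippocampus (-1.13 ± 0.24, adjusted p = 0.00897, limma), Dusp1, a phosphatase of MAP kinases, differed by -1.10 and Fos by -0.86. The calls of Egr1, Dusp1 and Fos were lost under median centring. Jun went the other way, at 2.20, 2.08 and 2.12 in the hippocampus against 0.85, 0.87 and 0.54 in the cortex (1.38 ± 0.12). Arc (-0.23 ± 0.32), Junb (-0.07) and Fosb (0.00) were not called, and Arc had the widest error of the list.

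Receptors and channels were called in both directions. Their counts stand beside 14.9% of all tested genes called toward the hippocampus and 11.9% toward the cortex. Among ionotropic glutamate receptors Grik4, the AMPA subunit Gria1 (0.82), the NMDA subunit Grin1 (0.67) and Grik5 (0.56) were higher in the hippocampus, and Gria3 (-0.74) and Grik1 (-0.51) were higher in the cortex. Dimmer probes of Grin1 (0.17) and Gria3 (0.25 and -0.30) were not called. Of 3 tested metabotropic receptors 1 was called in each direction, Grm8 (-0.61) being the one higher in the cortex. Of 7 tested GABA-A receptor subunits 4 were higher in the cortex, among them Gabrd (-1.33 ± 0.12), Gabra3 (-0.98) and Gabrb2 (-0.79), while Gabrb1 was higher in the hippocampus (0.57). Gabra5, known for its hippocampal expression, did not reach the detection rule. Among sodium and calcium channel subunits 6 of 24 were higher in the hippocampus and 3 in the cortex. Scn4b, described above, had the largest difference of the list, and those toward the hippocampus were led by the T-type channel Cacna1h at 3.67, 3.52 and 3.57 against 2.45, 2.41 and 2.43 (1.16 ± 0.10). The AMPA receptor auxiliary subunits of this family parted, with Cacng8 higher in the hippocampus (1.03) and Cacng3 in the cortex (-1.36). Of 53 potassium channel genes 13 were higher in the cortex, led by Kcnj4 (-0.97), Kcnv1 (-0.90) and Kcna2 (-0.89), and 5 in the hippocampus, led by the pacemaker channel Hcn2 (0.80). The median of these channels was -0.09 and turned to 0.02 under median centring.

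Of the proteins that tricyclic antidepressants bind, 9 of 24 were tested and 3 were called. Among all tested genes 14.9% were called toward the hippocampus and 11.9% toward the cortex. The ion channel receptor Htr3a (0.70 ± 0.11) and the adrenergic receptor Adra2c (0.44 ± 0.12) were higher in the hippocampus, and Adra2a was higher in the cortex (-0.55 ± 0.12). Both adrenergic calls were lost under median centring, and that of Adra2c also when CTX-AMI 1, CTX-AMI 3, HIP-AMI 2 or HIP-AMI 3 was left out. Htr1a, the main hippocampal serotonin receptor of this list, differed by 0.44 ± 0.17 and was not called (adjusted p = 0.077, limma). The transporters Slc6a4 and Slc6a2, which AMI blocks, did not reach the detection rule; their transcripts are known mainly from brainstem neurons. Among neurotrophin genes Ntrk3 was higher in the hippocampus (0.76), Ntf3 was not above background in the cortex and at least 1.10-fold higher in the hippocampus (adjusted p = 0.00604), and Bdnf differed by 0.49 ± 0.18 without a call. Ntrk2 was read as lower in the hippocampus by its brightest probe (-0.42) and as at least 1.15-fold higher by a dim probe that was not above background in the cortex (adjusted p = 0.0193, limma). Of 7 tested genes of neurogenesis the immature neuron genes Dcx (-0.76 ± 0.10) and Stmn1 (-0.82 ± 0.14) were lower in the hippocampus, calls that were lost under median centring, and the others were not called.

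Guidance and adhesion genes included some of the larger differences. Of 26 tested Wnt, ephrin and semaphorin genes 10 were higher in the hippocampus and 4 in the cortex. Sema5a, with the overlapping groups given above, Epha7 (1.54 ± 0.11), Sema3e (1.16 ± 0.13) and the Slit receptor Robo1 (0.95 ± 0.12) led toward the hippocampus, and the ephrin Efna5 (-1.51 ± 0.11) and Sema3a (-1.20 ± 0.13) toward the cortex. The receptor Nrp1 and its ligand Sema3a thus differed in opposite directions. The dimmer Epha7 probes differed by 0.77 and 0.16, the latter not called. Among cadherins Pcdh20 read 3.46, 3.39 and 3.32 in the hippocampus against 1.54, 1.88 and 1.25 in the cortex (1.83 ± 0.15), while 6 of the 15 tested were higher in the cortex, led by Pcdh9 (-1.16) and Cdhr1 (-1.14). Cdh7 was not above background in the hippocampus and at least 1.82-fold higher in the cortex (adjusted p = 0.000392, limma).

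Of 16 tested genes of amyloid and tau biology 2 were called higher in the hippocampus and 1 in the cortex, beside 14.9 and 11.9% of all tested genes. Bace1, the beta-secretase, read 3.59, 3.39 and 3.43 in the hippocampus against 2.79, 2.72 and 3.07 in the cortex (0.61 ± 0.12). Gsk3b was higher in the hippocampus by 0.29 (adjusted p = 0.0494, lost under quantile normalization and median centring and when CTX-AMI 1, CTX-AMI 2, CTX-AMI 3, HIP-AMI 2 or HIP-AMI 3 was left out), and Apoe, the lipid carrier made mainly by astrocytes and microglia, was lower there (-0.65 ± 0.15), a call that was lost without CTX-AMI 1 and under median centring. App (-0.41 ± 0.19) and Mapt (-0.19 ± 0.11) were not called, and how far their mouse probes read the human transgenes was not tested. The median of this list was -0.10 and turned to 0.29 under median centring. Of the corticosteroid genes Hsd11b1, which regenerates active glucocorticoid (0.98 ± 0.21), and the chaperone Fkbp5 (0.78 ± 0.12) were higher in the hippocampus, and Tsc22d3 was lower (-0.50 ± 0.16), a call that was lost under median centring and when any 1 array other than CTX-AMI 2 was left out.

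Glial lists differed from each other. Of 16 tested microglial genes 6 were higher in the hippocampus and none in the cortex (median 0.45). Trem2, a microglial lipid receptor, read 0.91, 1.71 and 1.09 in the hippocampus against 0.09, 0.38 and 0.24 in the cortex (1.004 ± 0.19), and its adaptor Tyrobp (0.94) and the growth factor receptor Csf1r (0.81) were higher as well. A dimmer Csf1r probe differed by 0.06 and was not called. Aif1 (0.33), Cx3cr1 (0.29) and the complement genes C1qa, C1qb and C1qc (0.33 to 0.46) were positive but not called. Of 15 tested astrocyte genes 5 were higher in the hippocampus and 2 in the cortex. Gfap, the astrocyte intermediate filament, read 1.90, 2.69 and 2.15 in the hippocampus against 0.25, 0.58 and 0.45 in the cortex (1.82 ± 0.19), whereas the water channel Aqp4 (-0.59) and the glutamate transporter Slc1a2 (-0.31) were lower there. The astrocyte median was 0.00 and turned to 0.07 under quantile normalization and neqc and to 0.58 under median centring, and median centring turned Slc1a2 to 0.04. The call of Aqp4 was lost under median centring. Of 12 tested interneuron genes 2 were higher in the hippocampus, Htr3a and Cck (0.41), and 4 in the cortex, Slc32a1 (-0.84), Vip (-0.79), Reln (-0.79) and Pvalb (-0.46), the last of which turned to 0.04 under median centring. The Cck call was lost under median centring and with all 12 arrays in one fit, among others. It was also lost when CTX-AMI 1, CTX-AMI 3 or HIP-AMI 3 was left out. Gad1 differed by 0.02 ± 0.22.

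Some myelin genes were called lower in the hippocampus of AMI-treated mice. Of 16 tested oligodendrocyte genes 5 were higher in the cortex and 1, Mal (0.74), in the hippocampus, with a median of -0.35 that turned to 0.01 under median centring. Another Mal probe went the other way (-0.70) and was not called. In vehicle mice the list had a median of -0.02, with 2 genes called higher in the hippocampus and 0 lower, and the interaction test called no probe. Mag, a myelin adhesion protein, read 4.36, 4.07 and 4.21 in the cortex and 2.89, 3.25 and 3.37 in the hippocampus (-1.04 ± 0.14). Mog read 2.38, 2.32 and 2.09 against 1.16, 1.43 and 1.70 (-0.84 ± 0.15), and Trf (-0.84), Cnp (-0.66) and Mobp (-0.51, with overlapping groups) were lower in the hippocampus as well. The other Mobp probes differed by -0.85 and 0.18, the latter not called. The calls of Mag, Mog, Trf and Cnp were lost under median centring. Mbp, the major myelin protein gene, gave 3 readings, -0.38 ± 0.28 by its brightest probe (adjusted p = 0.346, limma; 0.46 under median centring), -1.75 ± 0.18 by another and 0.50 ± 0.11 by the dimmest, the last 2 both called. The groups of Mbp thus had no single direction.

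**Figure D3:**
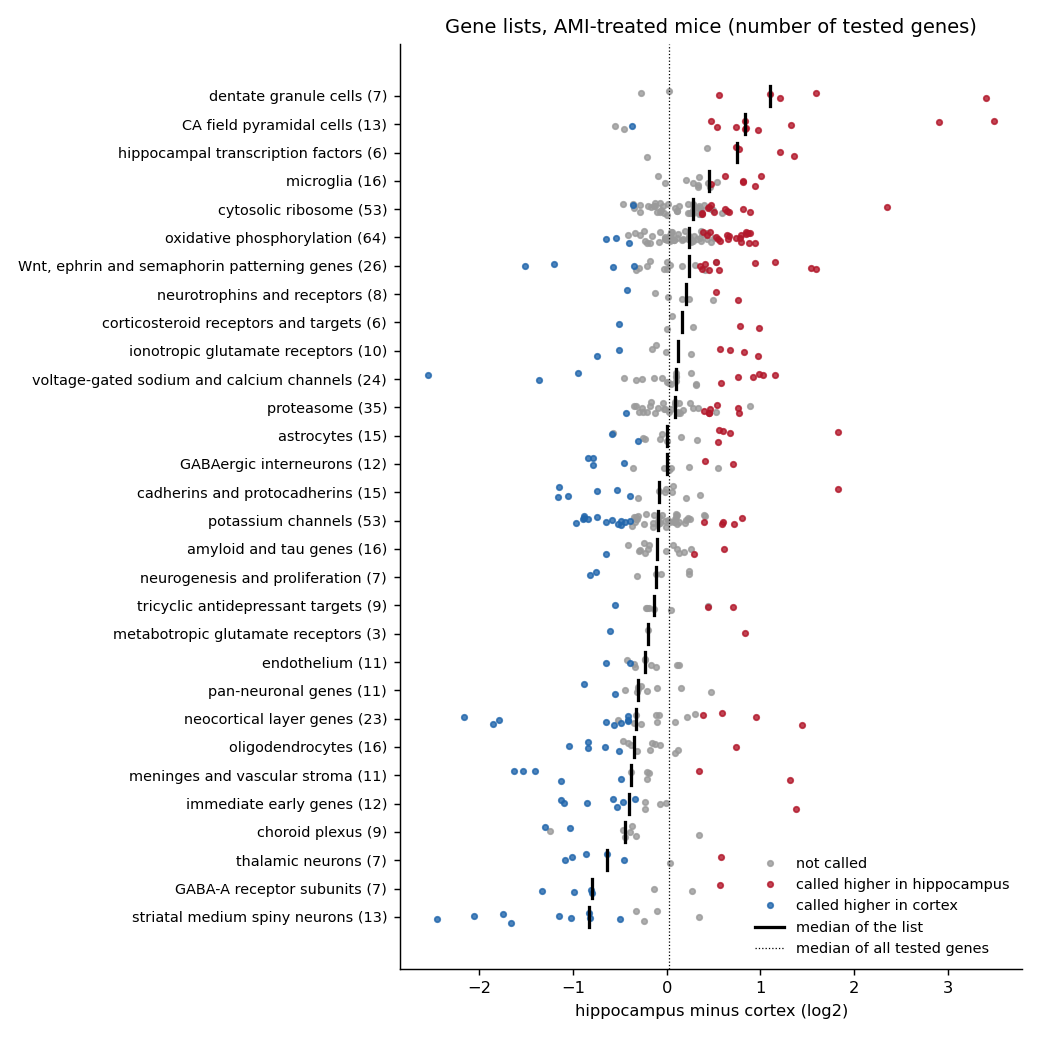
Each row is a gene list with the number of tested genes in parentheses, and each point is 1 gene, with its hippocampus minus cortex difference (log2) in AMI-treated mice on the horizontal axis; red and blue mark genes called higher in the hippocampus or the cortex, grey those not called, black bars the list medians and the dotted line the median of all tested genes. The dentate list has the highest median (1.10) and the striatal list the lowest (-0.83).

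Genes of protein synthesis and respiration were called more often toward the hippocampus, where 14.9% of all tested genes were called, than toward the cortex (11.9%). Of 53 cytosolic ribosomal genes 12 were higher in the hippocampus and 1 in the cortex (median 0.28). Of 64 genes of oxidative phosphorylation 19 were higher in the hippocampus, among them Ndufb5 (0.94), Atp5a1 (0.87) and Sdhb (0.80), and 3 in the cortex (median 0.24). Proteasome genes had 7 higher in the hippocampus and 1 in the cortex of 35 (median 0.09). Pan-neuronal genes did not share this shift, with Nefm (-0.88) and Syp (-0.55, with overlapping groups) higher in the cortex, 9 of 11 not called and a median of -0.30 that turned to 0.38 under median centring. Among all tested probes the median difference changed with brightness, from 0.00 in the dimmest decile to 0.10 in the sixth and -0.11 in the brightest, and quantile normalization left deciles between -0.01 and 0.02. Under quantile normalization the ribosomal median was 0.34 and the respiratory median 0.30.

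In vehicle-treated mice the same contrast, made on arrays that share no sample with the first, called 2706 of the 13193 probes (20.5%). Of the 280 probes at least 2-fold different in AMI mice, 278 had the same sign in vehicle mice and 246 were also called there. Of all 3512 called probes 1940 were called in the same direction in vehicle mice, which is 55.2% of the AMI calls and 71.7% of the vehicle calls, and none was called in the opposite direction. Across probes the 2 sets of differences correlated at r = 0.873, over points that share the arrays of each group. Spink8 differed by 3.65 in vehicle mice, C1ql2 by 3.04, Scn4b by -2.71 and Tbr1 by -1.88. Of the 24 leading genes Slc13a4 (-0.68, adjusted p = 0.530, limma) and Krt12 (-1.14, adjusted p = 0.0608) were not called in vehicle mice, and the others were called in the same direction. The test of the difference itself, tissue by treatment in limma over 12 arrays, called no probe (0.0%). In that limma test 417 probes, 3.16% of those tested, had an unadjusted p under 0.05, and the smallest adjusted p was 0.99987.

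Choroid plexus genes varied widely between arrays of the same group. The 9 tested choroid plexus genes had a median difference of -0.44 in AMI mice and 0.38 in vehicle mice. Ttr, the transthyretin gene that defines this epithelium, read 3.27, 3.86 and 4.40 in the hippocampus against 1.66, 5.996 and 7.61 in the cortex of AMI mice, and 3.77, 4.48 and 7.66 in the hippocampus against 6.79, 3.44 and 5.63 in the cortex of vehicle mice. The cortex arrays alone covered the range of all the hippocampus arrays of AMI mice, and the difference of -1.24 ± 1.16 was not called. The median level of the choroid list ran from -0.62 to 0.70 in the cortex and from -0.47 to 0.12 in the hippocampus of AMI mice. In vehicle mice it ran from -0.57 to 0.58 in the cortex and was at -0.22, 0.09 and 2.54 in the hippocampus, so that HIP-Vehicle 3 alone stood above the other 11 arrays. Of the list Clic6 (-1.30) and Enpp2 (-1.03, adjusted p = 0.049) were called. Clic6 lost its call under median centring and with all 12 arrays in one fit. Enpp2 lost its call when CTX-AMI 2 or any 1 hippocampus array was left out and under median centring.

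Of 11 tested genes of the meninges and vascular stroma 5 were higher in the cortex and 2 in the hippocampus of AMI mice, with a median of -0.38 beside -0.06 in vehicle mice. Ptgds, the prostaglandin D synthase of the leptomeninges, read 4.41, 3.81 and 5.01 in the cortex and 2.45, 3.18 and 2.73 in the hippocampus of AMI mice (-1.63 ± 0.28), against -0.36 in vehicle mice. The GABA transporter Slc6a13 differed by -1.53 and -0.73, the growth factor Igf2 by -1.41 and -0.29 and Igfbp2 by -1.12 and -0.06 in AMI and vehicle mice. The dimmer Igfbp2 probe differed by -0.35 in AMI mice, with overlapping groups, and was not called. The interaction test of tissue and treatment called no probe. The calls of Ptgds and Igf2 were lost under median centring. The sulfate transporter Slc13a4, 1 of the leading genes, read 2.21, 2.27 and 2.71 in the cortex and -0.28, 0.98 and 0.07 in the hippocampus of AMI mice (-2.14 ± 0.28), but in vehicle mice HIP-Vehicle 3 reached 2.96 while the other hippocampus arrays were at 0.10 and 0.29. Decorin (Dcn), in contrast, was higher in the hippocampus by 1.31 in both treatment groups. The level of the stromal list ran from 1.64 to 1.93 in the cortex and from 1.14 to 1.99 in the hippocampus of AMI mice, and HIP-Vehicle 3 was the highest of all 12 arrays at 2.61. The part of adhering choroid plexus or meninges in these differences was not tested.

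**Figure D4:**
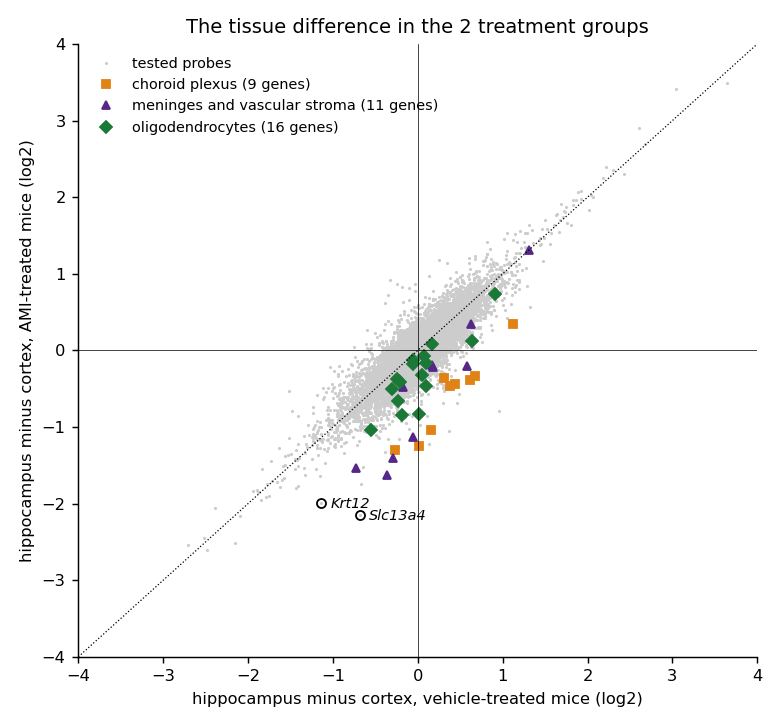
Hippocampus minus cortex differences (log2) are plotted for vehicle-treated mice on the horizontal axis and AMI-treated mice on the vertical axis; grey points are the 13193 tested probes, coloured symbols the genes of 3 marker lists, open circles Slc13a4 and Krt12, and the dotted line marks equal differences. Of the 280 probes at least 2-fold different in AMI mice 278 have the same sign in both groups, while all 9 choroid plexus genes lie below it.

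**Figure D5:**
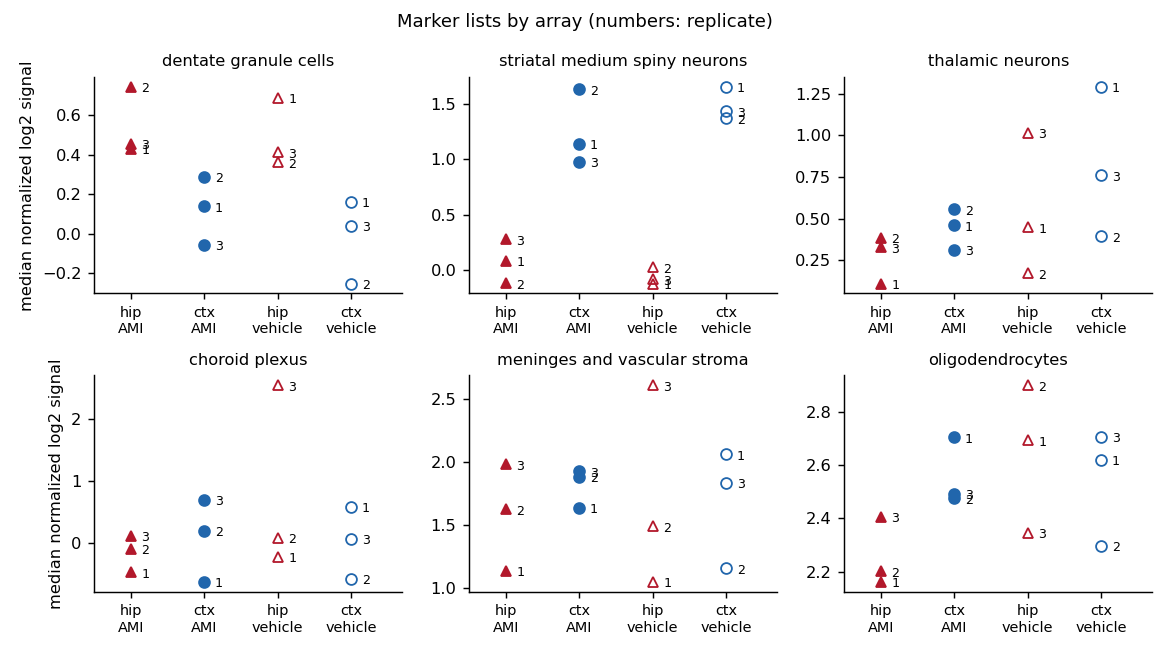
Median normalized log2 signal of 6 marker lists in each of the 12 arrays, normalized together, with triangles for hippocampus, circles for cortex, filled symbols for AMI, open symbols for vehicle and the replicate number beside each symbol. Striatal markers are lower in every hippocampus array than in any cortex array, whereas HIP-Vehicle 3 stands highest for choroid plexus (2.54) and stroma (2.61).

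Different probes of a gene did not always give the same answer. Of 2385 genes with more than 1 tested probe, 43 had probes called in opposite directions. Agap2, which encodes a GTPase-activating protein of neurons, is described as an example and was chosen after its values were seen; the probes of Mbp lay further apart. Its probe at chr10:126493443-126493492 read higher in the hippocampus (0.73 ± 0.14, adjusted p = 0.00601, limma) and its probe at chr10:126495844-126495893 higher in the cortex (-1.01 ± 0.10, adjusted p = 0.00017), in positions of the deposited tables, on the plus strand, with no build named. The first 30 bases of both are printed because they read the same gene.
Agap2 probe higher in the hippocampus: ttgaggagcgggatgcttgggttcaggcca
Agap2 probe higher in the cortex: ctttaaggtcctggcccccatccccagaaa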

How the data were processed

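Hippocampus and cortex RNA was hybridised to Illumina MouseRef-8 bead arrays, 1 array per sample. The authors deposited 2 tables of signal intensity without normalization or background subtraction, with detection p-values beside the signals. Per the submitters' processing notes the software was BeadStudio 3.4 and GenomeStudio 1.1.1. The log2 signals of the 6 AMI arrays were brought to a common mean and standard deviation (the z normalization of the study's methods, returned to log2 units), and probes with a deposited detection p-value of 0.05 or less on at least 3 of 6 arrays were fitted with limma 3.58.1 in R 4.3.3 and adjusted by Benjamini-Hochberg. The vehicle arrays and all 12 arrays together were treated in the same way on the same probes, and the 12-array fit gave the interaction of tissue and treatment. A gene was read by its brightest tested probe. Symbols were updated by Entrez ID for 23681 of 25697 probes, and 4172 differ from the deposited symbol. A probe not above background on the 3 arrays of a tissue was given a bound, the brighter tissue's mean against the higher, per array, of its own signal and the lowest detected signal.

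The members and gene lists were chosen with earlier results of these data known. Genes were named by 3 rules, namely the 12 largest non-overlapping differences per direction, up to 4 called members per list and direction (uncalled ones where a group result turned on them), and a set of defining markers; further list members are given for context. The scripts were tested on simulated data. Alternatives were other normalizations, filters, variance models, a replicate block, the methods' t-test and cutoffs, and leaving out each array; cyclic loess was added after seeing the data. The main fit held no replicate block because the study's methods use none. Deviations of same-numbered samples of the tissues correlated at r = -0.02, 0.08 and -0.34, and those of some differently numbered ones at 0.33 and 0.34. With 3 arrays per tissue these values cannot settle whether the same mice gave both tissues. The number of arrays limits the precision; the median residual SD was 0.14. Tables and figures were made with Python 3.11.15, pandas 2.3.3 and matplotlib 3.10.9. Some members of the gene lists count in the list totals but are not reported here by name.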

Additional observations from a re-analysis of the deposited data

How the results depend on the processing

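The count of 3512 probes in AMI mice was 1353 under median centring, 6716 with array weights, 1524 by the methods' t-test (4407 at an unadjusted p of 0.05 or less) and 2284 at the methods' cutoffs, and the cause of these shifts was not tested. It lay between 2775 and 4812 under the other normalizations, filters and fits, cyclic loess (4807), chosen after seeing the data, included. Leaving out 1 array gave 1692 to 3897 calls, with 1692 without CTX-AMI 1, 2110 without HIP-AMI 3 and 2341 without CTX-AMI 3. The 280 probes at 2-fold or more became 442 under median centring and 703 under neqc, and 260 to 326 with 1 array left out. In vehicle mice the 2706 calls became 2941 under median centring, where 89.4% were higher in the hippocampus against 59.3%, and 1338 to 2846 with 1 array left out (1338 without HIP-Vehicle 2, 1759 without CTX-Vehicle 1).

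With the replicate number as a block the counts were 3049 in AMI mice and 2001 in vehicle mice. By the labels same-numbered samples share only a number, and not every sample correlated best with its own. The interaction called 0 probes under limma with the block (471 at an unadjusted p under 0.05), quantile normalization (635) and median centring (83). Of the gene lists 12 had a median above 0, and 20 under median centring. Of 153 called named genes 68 kept the call under all alternatives in which they were tested. Under median centring 57 lost it with the sign kept, a count that leaves out the genes whose sign turned, listed below. By the methods' t-test 62 lost it, and 28 lost it without CTX-AMI 1. The 24 leading genes kept theirs where tested, except Slc13a4 by the methods' t-test; 21 of them were tested and called with detection on all 6 arrays at 0.05 and 19 at 0.01. Under median centring the sign turned for Atp5j (0.12), Mbp (0.46), Ndufs4 (0.10), Ntrk2 (0.0687), Ociad2 (0.0045), Psmc5 (0.10), Pvalb (0.0436), Rpl27a (0.0799), Slc1a2 (0.0363) and Syp (0.21). Ttr turned to 1.09 with array weights and lay between -3.0045 and 0.0174 with 1 array left out, the latter without CTX-AMI 3. Probes near background limit what could be seen, with 237 tested probes below detection in all cortex arrays and 108 in all hippocampus arrays.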

Other observations

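Some probes varied widely within a tissue and were not called between tissues; they were picked for that spread after their values were seen. Pou6f1, a POU domain transcription factor, read 2.16 in HIP-AMI 2, 1.85 in CTX-AMI 1 and 2.72 in CTX-AMI 3, and between -1.34 and -1.10 in the other AMI arrays. The mitochondrial glutamate carrier Slc25a18 was high in the same 3 arrays, at 3.64, 3.21 and 3.97, and between 1.05 and 1.46 in the others. The outer mitochondrial membrane receptor gene Tomm22 was low in HIP-AMI 2 (0.09) and CTX-AMI 3 (-0.44) and between 1.89 and 2.95 in the other AMI arrays. In vehicle mice Pou6f1 and Slc25a18 were not high in the same arrays. Pou6f1 was high in HIP-Vehicle 1 (1.83) and CTX-Vehicle 1 (2.12), where Slc25a18 read 1.13 and 1.01. Slc25a18 was high in HIP-Vehicle 3 (3.74) and CTX-Vehicle 3 (3.17), where Pou6f1 read -1.21 and -1.31.

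Genes of antigen presentation by MHC class II stood apart in 1 array. Both probes of Cd74, the invariant chain, read 2.59 and 2.44 in HIP-AMI 3 and at most 0.00 and -0.16 in the other AMI arrays. H2-Ab1, a class II beta chain, read 2.04 in HIP-AMI 3 and between -0.999 and -0.31 in the others.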
